A study of Mus musculus with 60 samples.

Results

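The genes described here are 10 receptor chains through which blood cells sense haematopoietic growth factors and interleukins: Csf3r, Csf2ra, Csf2rb, Csf2rb2, Csf1r, Il6ra, Il7r, Il2rb, Il2rg and Il10ra. They are a list of names, with no measured value in the rule, drawn up when earlier results of these data were known, and all 10 were found by name and identifier among the 49315 genes of the count tables. Whole blood came from male CD2F1 mice, 60 in all, with 6 in each of 10 groups and a single sample per mouse. Vehicle, or BIO 300 (an oral powder of the isoflavone genistein) at 50, 100 or 200 mg/kg, was given by gavage before sampling, and the labels name these doses only as low, med and high. Blood was drawn from unirradiated mice of all 4 treatments either 24 h (Day 0) or 48 h (Day 1) after dosing ended. A further group given vehicle and another given 200 mg/kg BIO 300 received 9.2 Gy total-body irradiation (TBI) on Day 0 and were bled on Day 1, so that every irradiated mouse had also been gavaged. No group was irradiated after 50 or 100 mg/kg.

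Receptors of this kind have no enzyme of their own in most cases. When the ligand brings the chains together, Janus kinases bound to their tails phosphorylate STAT transcription factors, and the signal sustains survival, division or maturation of the cell. Granulocyte colony-stimulating factor (G-CSF), granulocyte-macrophage colony-stimulating factor (GM-CSF) and interleukin-3 are best known for driving production and activation of neutrophils and monocytes, while interleukin-7 and interleukin-15 keep lymphocytes and natural killer (NK) cells alive. Csf1r, the receptor for macrophage colony-stimulating factor (M-CSF), is the exception, a receptor tyrosine kinase.

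Most type I cytokine receptors carry a WSXWS box near the membrane, written in DNA as a TGG codon, a serine codon, any codon, TGG and a serine codon. A search of the coding sequences of GRCm38 with GENCODE M21 found these 15 bases in frame in 71 of 21789 protein-coding genes (0.326%), and in 7 of the 10 receptor genes. The 7 stretches are shown because the box is the coding feature that the members of this family share, with the box in capitals and 15 bases on each side, read 5′ to 3′ on the strand of the gene. The coordinates are those of the box.
Csf3r, chr4:126034530-126034544, plus strand: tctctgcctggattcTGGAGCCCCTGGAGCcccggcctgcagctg
Csf2rb, chr15:78345516-78345530, plus strand: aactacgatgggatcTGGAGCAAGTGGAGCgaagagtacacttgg
Csf2rb2, chr15:78287916-78287930, minus strand: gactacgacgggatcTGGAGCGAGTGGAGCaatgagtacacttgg
Il6ra, chr3:89885930-89885944, minus strand: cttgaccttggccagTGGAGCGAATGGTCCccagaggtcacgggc
Il7r, chr15:9511151-9511165, minus strand: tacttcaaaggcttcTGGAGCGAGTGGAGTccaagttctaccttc
Il2rb, chr15:78485763-78485777, minus strand: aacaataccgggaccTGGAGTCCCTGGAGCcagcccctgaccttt
Il2rg, chrX:101266215-101266229, minus strand: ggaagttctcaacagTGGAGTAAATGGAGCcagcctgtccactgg
Csf1r, Csf2ra and Il10ra did not hold these letters in frame. The stretches of Csf2rb and Csf2rb2 differed at 5 of 45 bases. Their whole coding sequences, of 2688 and 2634 bases, were identical at 2503 of 2628 aligned bases (95.2%), and 11.0% of all windows of 100 bases in Csf2rb occurred unchanged in Csf2rb2, so that reads could be counted for either gene and the division of counts between them is uncertain.

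Csf2rb, Csf2rb2 and Il2rb lay together on chromosome 15, at 78325752 to 78353847, 78282507 to 78305721 and 78479256 to 78495271. Il7r lay elsewhere on the same chromosome (9505788 to 9530176). The others were on chromosomes 4 (Csf3r, 126024550 to 126044440), 19 (Csf2ra, 61223957 to 61228429), 18 (Csf1r, 61100598 to 61132149), 3 (Il6ra, 89864059 to 89913196), X (Il2rg, 101264378 to 101268255) and 9 (Il10ra, 45253837 to 45269149). Csf1r shared 873 exon bases with Hmgxb3 on the opposite strand and Il6ra shared 242 with the antisense gene Gm42809. The sources used here do not give the strand setting of the counting, so reads of these overlaps cannot be assigned with certainty.

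Library totals ran from 15099415 to 45589415 counts, and the 10 receptor genes together took a group median of 0.059% to 0.126% of them in most unirradiated groups. That share was 0.0181% and 0.0239% at 100 and 200 mg/kg on Day 1, and 0.306% and 0.176% in the irradiated vehicle and BIO 300 groups. The smallest count of a member in any mouse was 26 (Csf2rb2), and the largest was 79118 (Csf3r). A single noncoding gene, Gm26917, held a median of 4.85% to 11.8% of the counts in 6 unirradiated groups, 0.278% and 0.165% at 100 and 200 mg/kg on Day 1, and 2.07% and 1.65% after TBI. The haemoglobin genes Hba-a1, Hba-a2, Hbb-bs and Hbb-bt together held medians of 5.32% to 11.0% in the same 6 groups. Their share was 15.9% and 16.9% at 100 and 200 mg/kg on Day 1, and 9.23% and 12.7% after TBI with vehicle and BIO 300. Shares this large differed between groups, so the choice of scaling matters. Levels are given as CPM (counts scaled to a common library size) after TMM normalization over the 60 mice. Liver transcripts were present in 10 libraries with Alb above 100 CPM, among them those of mouse 51 (irradiated, vehicle) and mouse 57 (irradiated, 200 mg/kg), the lowest of their groups for Csf3r. Of 12 neutrophil markers, Elane was at 0 in 3 groups (100 and 200 mg/kg on Day 0 and 100 mg/kg on Day 1). Markers of blood leukocytes, platelets and red cells were otherwise present, as whole blood requires. In whole blood, fewer cells of a type and less RNA per cell cannot be told apart.

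Csf3r, the G-CSF receptor of the neutrophil lineage, was the most abundant of the 10 per length. Divided by the exon length of each gene, its median level in unirradiated, vehicle-treated mice on Day 1 was 56.9 CPM per kb. Il2rg followed at 25.0, Il7r at 17.8 and Il10ra at 16.6 CPM per kb. The remaining levels per kb were 10.1 for Il6ra, 9.01 for Csf1r, 8.85 for Il2rb, 7.73 for Csf2ra, 4.82 for Csf2rb and 2.49 for Csf2rb2. Within the summed level per kb of the 10 genes, Csf3r took a median of 36.6%, the 3 lymphoid chains Il2rg, Il7r and Il2rb took 13.7%, 10.5% and 5.43%, and Il10ra took 10.6%.

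**Figure D1:**
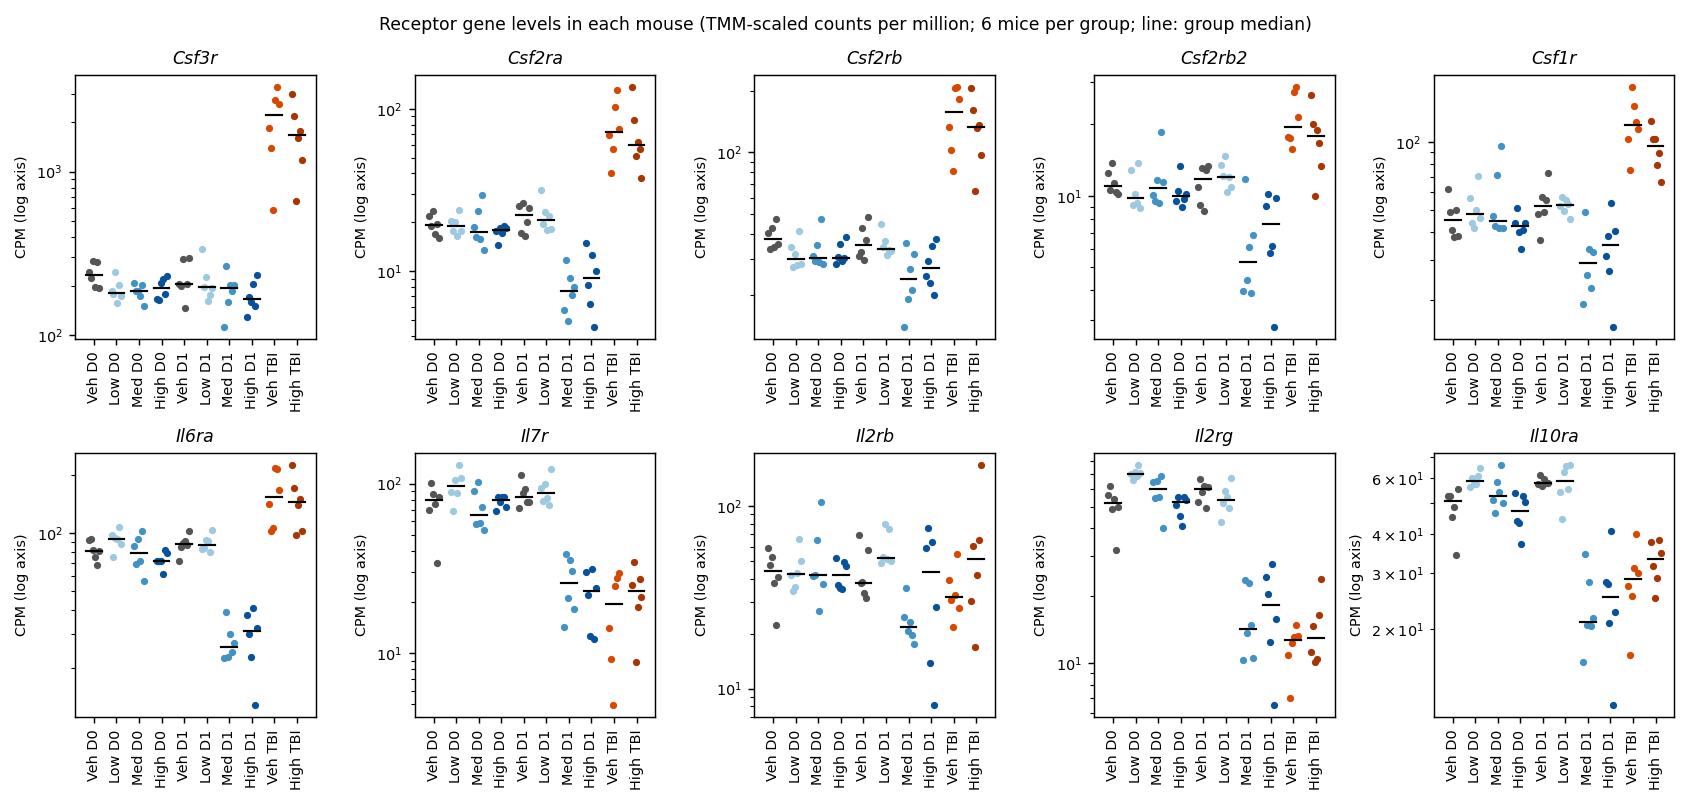
Level of each receptor gene in each of the 60 mice (CPM after TMM normalization, log axis), with the 10 groups along the horizontal axis, 1 point per mouse and a line at the group median. Csf3r, Csf2ra, Csf2rb and Csf1r have their highest medians in both irradiated groups, and Il7r and Il2rg are low in those groups and at 100 and 200 mg/kg on Day 1.

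When the 10 groups were ranked by the median level of a gene, ranges of neighbouring groups did not overlap at 1 of 9 steps for Csf3r, Csf2ra, Csf2rb, Csf1r, Il6ra, Il7r and Il2rg. That step lay between the irradiated and the unirradiated groups for the first 4 of these genes. For Csf1r it separated only the neighbours, since the lowest irradiated BIO 300-treated mouse (66.2 CPM) was below the highest mice of vehicle on Day 1 (72.5 CPM) and of 100 mg/kg on Day 0 (96.1 CPM). For Il7r it lay between 100 mg/kg on Day 0 (median 65.4 CPM) and 100 mg/kg on Day 1 (25.7 CPM). For Csf2rb2, Il2rb and Il10ra, the ranges of all 9 neighbouring pairs overlapped.

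Irradiation of vehicle-treated mice moved some receptor genes up and others down. Relative to unirradiated, vehicle-treated mice on Day 1, the 5 receptor chains for colony-stimulating factors and interleukin-3 (Csf3r, Csf2ra, Csf2rb, Csf2rb2 and Csf1r) and Il6ra were higher, and Il7r, Il2rg and Il10ra were lower, all at an adjusted p under 0.05, while Il2rb did not pass (edgeR's quasi-likelihood test, Benjamini-Hochberg over all genes tested). With an absolute log2 fold change over 1 as well, the definition of a DEG used throughout, 4 were higher and 3 lower, where 19.6% of the 25146 genes tested were higher and 16.4% lower by the same rule (scaling by total counts gave 12.4% and 22.5%, and 3 receptor genes higher and 3 lower). Over the 10 genes the log2 fold change had a median of 0.86, beside 0.09 over all genes tested. The groups did not overlap for 5 genes that were higher and 3 that were lower, against 11.1% and 14.0% of all genes tested.

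Csf3r ranged from 148.0 to 296 CPM with a median of 205.5 in unirradiated, vehicle-treated mice on Day 1, and from 584 to 3310 with a median of 2220 after TBI. Every irradiated mouse was above every unirradiated one, and Csf3r was higher by 3.19 on the log2 scale (standard error 0.398, adjusted p = 5.32e-05), or 9.14-fold. The lowest irradiated value belonged to mouse 51, whose library held liver transcripts, and without the libraries of that kind the log2 fold change was 3.49. Csf2ra, the GM-CSF binding chain, ranged from 16.5 to 26.2 CPM (median 22.2) without and from 40.5 to 130.2 CPM (median 71.9) with TBI. Its groups did not overlap either, and it was higher by 1.85 on the log2 scale (standard error 0.271, adjusted p = 0.000158). For Csf2rb, the signalling chain shared by the receptors for GM-CSF, interleukin-3 and interleukin-5, the corresponding ranges were 29.8 to 48.2 CPM (median 35.1) and 80.8 to 209.6 CPM (median 157.6), again apart, and it was higher by 2.02 (standard error 0.260, adjusted p = 6.67e-05). Csf2rb2, the mouse chain specific for interleukin-3, had a smaller difference, from a median of 11.8 CPM (8.61 to 13.4) to 19.5 CPM (15.7 to 28.7), higher by 0.89 (standard error 0.200, adjusted p = 0.00304).

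Csf1r, the M-CSF receptor of monocytes and macrophages, ranged from 36.7 to 72.5 CPM (median 52.0) in unirradiated and from 75.4 to 175.9 CPM (median 118.5) in irradiated, vehicle-treated mice. The ranges were apart by a narrow margin, and Csf1r was higher by 1.18 (standard error 0.211, adjusted p = 0.000658 by edgeR's test). The highest irradiated value belonged to mouse 51, whose library held liver transcripts. Csf1r took 11.9% of the summed level per kb of the receptor genes in that mouse, beside a group median of 2.79%. With each mouse left out in turn, the log2 fold change of Csf1r ran from 1.08 to 1.29. Il6ra, the interleukin-6 binding chain, had medians of 87.6 CPM (71.5 to 102.6) and 154.6 CPM (102.6 to 217), with the lowest irradiated mouse just under the highest unirradiated one. It was higher by 0.83 on the log2 scale (standard error 0.215, adjusted p = 0.00703). Scaled by total counts, which moved the median of all genes by -0.36, Csf2rb2 (0.49, adjusted p = 0.0945) and Il6ra (0.44, adjusted p = 0.144) no longer passed. Without the libraries that held liver transcripts, the values for these 2 genes were 1.14 and 1.03, and 8 of the 10 genes were DEGs.

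Il7r, Il2rg and Il10ra moved the other way. Il7r, the interleukin-7 receptor alpha chain of T cells and B cell precursors, lay between 71.9 and 112.9 CPM (median 82.9) in unirradiated, vehicle-treated mice and between 4.93 and 29.5 CPM (median 19.4) after TBI. The groups did not overlap, and Il7r fell by 2.26 on the log2 scale (standard error 0.390, adjusted p = 0.000497), or 4.81-fold. Il2rg, the common gamma chain that the receptors for interleukins 2, 4, 7, 9, 15 and 21 share, went from a median of 59.7 CPM (49.4 to 66.1) to 12.7 CPM (6.95 to 14.8). All irradiated mice were below all unirradiated ones, a decrease by 2.32 (standard error 0.182, adjusted p = 3.32e-06). Il10ra, the interleukin-10 binding chain, fell by 1.07 (standard error 0.182, adjusted p = 0.000451), from a median of 58.0 CPM (57.0 to 61.4) to 28.7 CPM (16.5 to 39.9), without overlap. Il2rb, which binds interleukin-2 and interleukin-15 on NK cells and activated T cells, did not pass the test. Its range was 31.3 to 69.8 CPM (median 37.9) without and 21.8 to 54.6 CPM (median 31.7) with TBI, and the 95% interval of its log2 fold change ran from -0.95 to 0.16. Scaled by total counts, Il2rb passed edgeR's test with a lower level (-0.79, adjusted p = 0.0417).

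Against vehicle-treated mice on Day 0, the same irradiated mice gave 5 DEGs higher (15.1% of all genes) and 2 lower (11.8%) among the receptor genes. Log2 fold changes were 3.25 for Csf3r, 2.12 for Csf2ra, 2.08 for Csf2rb, 1.47 for Csf1r and 1.05 for Il6ra. Il7r fell by 1.92 and Il2rg by 2.00 on the same scale. Csf2rb2 (1.00) and Il10ra (-0.67) passed the adjusted p but not the fold limit, and Il2rb (-0.23) passed neither. The irradiated mice are shared by both comparisons.

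**Figure D2:**
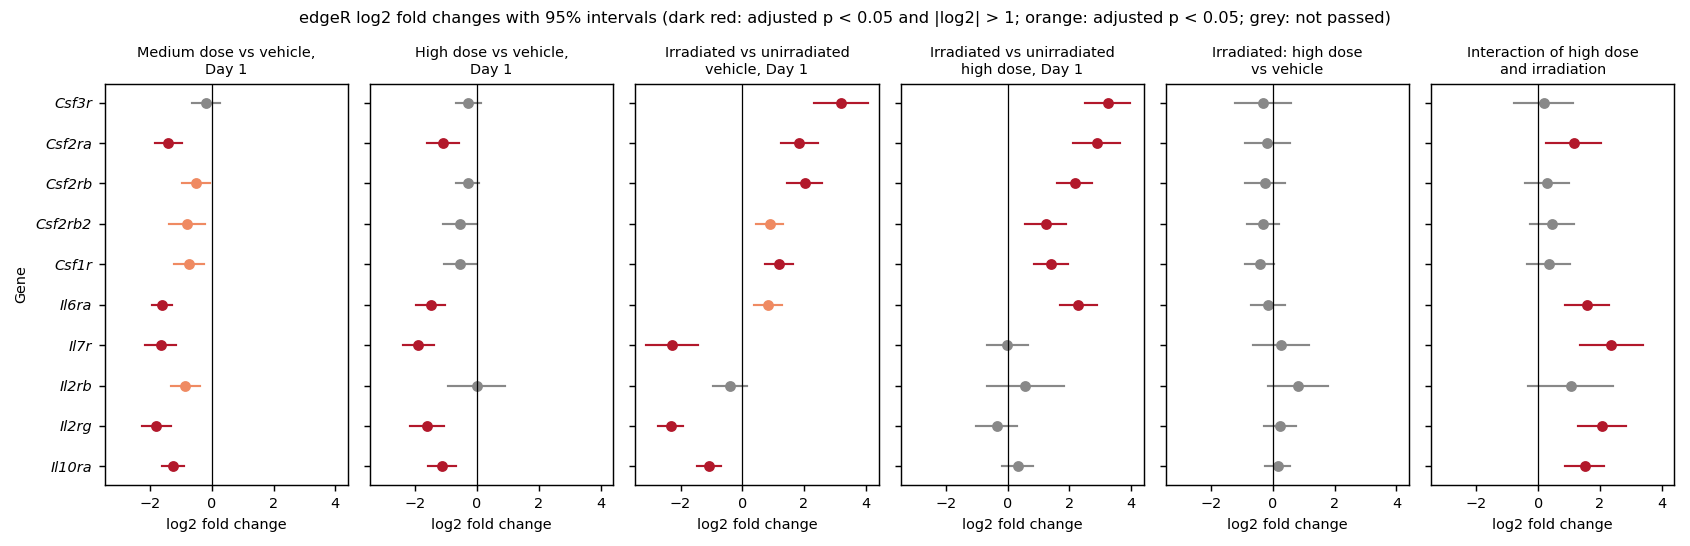
Log2 fold change of the 10 receptor genes in 6 comparisons, with 95% intervals from edgeR's fit, 6 mice a group. Dark red points are DEGs, orange points passed the adjusted p alone and grey points did not pass. TBI in vehicle-treated mice shows receptor genes on both sides of 0, 100 and 200 mg/kg on Day 1 show points at or below 0, and irradiated BIO 300-treated against irradiated vehicle-treated mice shows grey points.

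The higher doses of BIO 300 went with lower levels of Il7r, Il2rg, Il10ra, Il6ra and Csf2ra on Day 1 in the absence of radiation. At 100 mg/kg, 5 of the 10 receptor genes were DEGs with a lower level than vehicle gave, as were 30.6% of all genes tested. On the adjusted p alone, 9 receptor genes and 40.6% of all genes were lower. At 200 mg/kg, 5 receptor genes were lower by the DEG rule, against 30.5% of all genes, and edgeR passed no further one, whereas DESeq2 passed 7. At each dose all BIO 300-treated mice were below all vehicle-treated mice for 5 of them, beside 30.5% of all genes at either dose. Median log2 fold changes were -1.05 over the receptor genes and -0.38 over all genes at 100 mg/kg, and -0.83 and -0.48 at 200 mg/kg.

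At 100 mg/kg Il7r had 14.2 to 38.2 CPM (median 25.7), and with 200 mg/kg 12.1 to 31.2 CPM (median 23.1), both below the 71.9 CPM of the lowest vehicle-treated mouse. It fell by 1.66 (standard error 0.235, adjusted p = 3.03e-05) and by 1.90 (standard error 0.231, adjusted p = 6.58e-06). Il2rg had medians of 14.2 CPM (10.3 to 23.6) and 18.1 CPM (6.51 to 27.9), against 49.4 CPM in the lowest vehicle-treated mouse, and fell by 1.80 and 1.62 on the log2 scale (adjusted p = 6.47e-06 and 9.2e-05). Both of these lymphoid chains were thus without overlap at both doses. Il10ra fell by 1.25 at 100 mg/kg (15.7 to 34.5 CPM, median 21.1, adjusted p = 1.76e-05) and by 1.13 at 200 mg/kg (11.5 to 40.9 CPM, median 25.2, adjusted p = 0.000383), likewise without overlap.

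Il6ra, which was higher after TBI, was lower at these doses. The lower of these doses gave 22.4 to 38.7 CPM (median 25.5) and the higher 12.8 to 40.8 CPM (median 31.0), where the lowest vehicle-treated mouse had 71.5 CPM. The decreases were 1.60 (standard error 0.151, adjusted p = 6.13e-07) and 1.495 (standard error 0.219, adjusted p = 3.86e-05) on the log2 scale. Csf2ra likewise went the opposite way to its change after TBI, with 4.92 to 11.7 CPM (median 7.55) and 4.55 to 14.9 CPM (median 9.09), all below the lowest vehicle-treated mouse, and decreases by 1.40 (adjusted p = 4.79e-05) and 1.11 (adjusted p = 0.00115). Without mouse 47 (200 mg/kg), Csf2ra and Il10ra at 200 mg/kg were at -0.97 and -0.98, and 3 receptor genes were DEGs.

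Csf3r was the receptor gene nearest to its vehicle level at 100 mg/kg. With 100 mg/kg it had 113.1 to 265 CPM (median 194), and with 200 mg/kg 129 to 234 CPM (median 166), within or close to the vehicle range of 148.0 to 296 CPM. Its log2 fold changes of -0.18 (95% interval -0.63 to 0.26) and -0.28 (adjusted p = 0.202) did not pass. Csf1r and Csf2rb2 passed at 100 mg/kg with decreases by 0.73 (adjusted p = 0.0107) and 0.80 (adjusted p = 0.0171), and at 200 mg/kg had values of -0.55 (adjusted p = 0.0616) and -0.55 (adjusted p = 0.0716). At 200 mg/kg both passed with DESeq2 (adjusted p = 0.0387 and 0.0442) and in one fit of all 60 mice (adjusted p = 0.0121 and 0.017). Csf2rb passed narrowly at 100 mg/kg (-0.51, adjusted p = 0.0496) and did not without the libraries that held liver transcripts (-0.37, adjusted p = 0.104). Il2rb had the values furthest apart between the doses. It fell by 0.85 at 100 mg/kg (17.6 to 35.4 CPM, adjusted p = 0.00398), while at 200 mg/kg its value was -0.01 with a 95% interval from -0.95 to 0.92, the 6 mice being spread from 8.13 to 75.6 CPM around a median of 43.7. The 100 and 200 mg/kg groups were not compared directly.

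The scaling set these sizes in part. Scaling by total counts, not TMM, moved the median of all genes by -1.38 and -1.48 at 100 and 200 mg/kg, and all 10 receptor genes were then DEGs lower than vehicle at both doses, Csf3r at 100 mg/kg by 1.56 on the log2 scale. Over all genes that scaling gave 4.14% higher and 62.2% lower at 100 mg/kg, where TMM gave 18.2% and 30.6%, and 3.03% higher and 65.5% lower at 200 mg/kg, where TMM gave 17.3% and 30.5%. A ratio of counts of a pair of receptor genes within a mouse does not depend on the scaling.

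Among irradiated mice, none of the 10 receptor genes passed between BIO 300 at 200 mg/kg and vehicle (0.0% of 24916 genes did). No member had an unadjusted p under 0.05 with edgeR or with DESeq2's Wald test, while 688 of all genes did with edgeR. Csf3r had 666 to 3000 CPM (median 1683) with BIO 300, beside 584 to 3310 CPM (median 2220) with vehicle, a log2 fold change of -0.32 with a 95% interval from -1.23 to 0.60. Il7r had 8.87 to 34.4 CPM (median 23.2), beside 4.93 to 29.5 CPM (median 19.4), at 0.25 with an interval from -0.66 to 1.16. Csf1r had 66.2 to 123.5 CPM (median 95.7) with BIO 300, at -0.43 with an interval from -0.91 to 0.05. The ranges of these 3 genes overlapped between the groups, and the intervals allow differences of more than 1.5-fold in at least 1 direction. The largest value, 0.80 for Il2rb (-0.17 to 1.77), was 0.26 without mouse 60, which had 168 CPM where the other 5 mice of its group had 17.0 to 65.4 CPM.

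Set against unirradiated mice given the same 200 mg/kg on Day 1, irradiated BIO 300-treated mice had 6 receptor genes higher by the DEG rule (14.9% of all genes), namely the 5 colony-stimulating factor and interleukin-3 receptor chains and Il6ra. Log2 fold changes were 3.24 for Csf3r, 2.89 for Csf2ra, 2.29 for Il6ra, 2.17 for Csf2rb, 1.41 for Csf1r and 1.23 for Csf2rb2. The other 4 did not pass, with -0.01 for Il7r, -0.36 for Il2rg, 0.58 for Il2rb and 0.33 for Il10ra. With total counts 7 receptor genes were higher, and 38.5% of all genes were higher and 0.945% lower, where TMM gave 14.9% and 5.73%. Both of these groups were low in Il7r, with medians of 23.2 and 23.1 CPM. Against unirradiated, vehicle-treated mice on Day 1, the irradiated BIO 300-treated mice had Csf3r (2.94), Csf2rb (1.84) and Csf2ra (1.72) higher and Il7r (-1.95) and Il2rg (-2.02) lower as DEGs (19.6% and 16.9% of all genes). With total counts the split was 3 higher and 3 lower, and 10.6% and 27.7% of all genes.

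Whether the effect of TBI differed between vehicle and 200 mg/kg was tested as an interaction on Day 1. For 5 of the 10 receptor genes, and 19.5% of all genes, the log2 fold change with TBI was higher in BIO 300-treated mice by the DEG rule. The differences were 2.37 for Il7r (standard error 0.496, adjusted p = 0.00103), 2.06 for Il2rg (0.373, adjusted p = 0.000362), 1.57 for Il6ra (0.343, adjusted p = 0.00143), 1.503 for Il10ra (0.299, adjusted p = 0.00072) and 1.15 for Csf2ra (0.432, adjusted p = 0.0431). All 5 were DEGs lower in unirradiated mice at 200 mg/kg on Day 1, and the interaction shares those mice with that comparison. For Csf2ra the call was lost with DESeq2 (adjusted p = 0.0573). For Csf3r the difference was 0.18 (95% interval -0.77 to 1.14), and for Csf2rb, Csf2rb2, Csf1r and Il2rb it was 0.27, 0.45, 0.34 and 1.05, none of which passed. With total counts, which moved the median of all genes by 1.08, all 10 were called, and 43.6% of all genes were higher and 1.8% lower, where TMM gave 19.5% and 10.0%.

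On Day 0, and at 50 mg/kg on Day 1, edgeR's test passed 1 receptor gene in all against vehicle, Il2rg at 50 mg/kg on Day 0. By edgeR's test no receptor gene passed at 100 mg/kg on Day 0, at 200 mg/kg on Day 0, at 50 mg/kg on Day 1 or between the days in vehicle-treated mice, where 0.0%, 0.0%, 0.00829% and 0.0% of all genes did. With an unadjusted p under 0.05 there was 1 receptor gene in each, and DESeq2 passed 0 in each of these 4. Their log2 fold changes ran from -0.35 to 0.31, -0.27 to 0.07, -0.10 to 0.43 and -0.08 to 0.28. Il10ra was higher in every vehicle-treated mouse on Day 1 (57.0 to 61.4 CPM) than on Day 0 (34.3 to 55.4 CPM), a pattern that 0.476% of genes showed, with a log2 fold change of 0.28 that did not pass.

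At 50 mg/kg on Day 0, Il2rg passed with edgeR, where 4.21% of all genes were higher with an adjusted p under 0.05. It had 65.7 to 76.8 CPM (median 70.2), above all 6 vehicle-treated mice (32.1 to 61.7 CPM, median 51.8), and was higher by 0.49 (standard error 0.127, adjusted p = 0.0212). Il10ra was also without overlap (56.5 to 64.8 against 34.3 to 55.4 CPM), at 0.32 with an adjusted p of 0.0554. DESeq2 passed 3 receptor genes in this comparison, with Il10ra (0.27, adjusted p = 0.0437) and Csf3r (-0.36, adjusted p = 0.042) besides Il2rg, and Il10ra also passed with edgeR under the stricter filter (adjusted p = 0.0371), with odd or even animal number as a term (adjusted p = 0.0466) and without the libraries that held liver transcripts (adjusted p = 0.0417). Groups did not overlap in this direction for 2.53% of all genes. In the same comparison 4 of 8 B cell and 0 of 8 T cell markers passed higher and 7 of 7 platelet markers passed lower, and the part of cell numbers in these values was not tested. In one fit of all 60 mice, Il2rg did not pass (adjusted p = 0.236). Csf3r (-0.30, adjusted p = 0.0365) and Csf2rb (-0.28, adjusted p = 0.0183) passed lower with edgeR when odd or even animal number was a term. With total counts, which moved the median of all genes by 0.66, 10.5% of genes were DEGs higher and 1.25% lower, where TMM gave 0.127% and 4.38%. Under that scaling 9 receptor genes passed higher on the adjusted p, Csf2rb among them, and 2 receptor genes were DEGs. Csf3r also turned positive with total counts (0.39) but did not pass (edgeR's test, adjusted p = 0.0629).

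The effects at 100 and 200 mg/kg differed between the days when tested as interactions. At 100 mg/kg, 7 receptor genes were called with a log2 fold change that was lower on Day 1 than it had been on Day 0 (26.3% of all genes), from -1.03 for Csf1r to -2.01 for Il2rg. At 200 mg/kg, 4 were (23.6%), Il7r (-1.97), Il2rg (-1.62), Il6ra (-1.34) and Il10ra (-1.10). Csf3r was called at neither dose. At 50 mg/kg, Il2rg passed with -0.59 (adjusted p = 0.0176), where 7.04% of all genes passed in that direction. Total counts gave 1.5%, 3.52% and 2.4% of all genes higher and 38.7%, 56.4% and 52.5% lower at 50, 100 and 200 mg/kg between days, where TMM gave 6.73%, 15.7% and 13.1% higher and 0.961%, 26.3% and 23.6% lower.

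**Figure D3:**
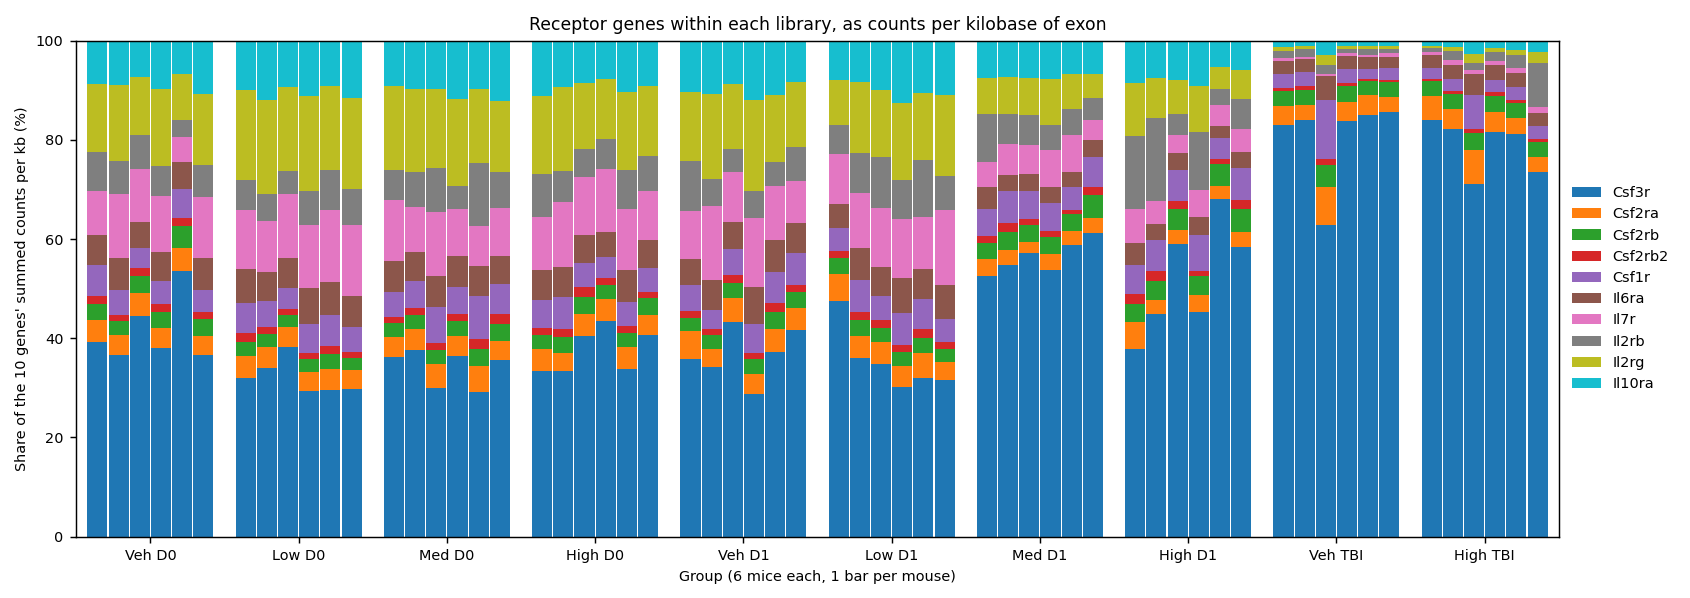
Share of each receptor gene in the summed counts per kb of the 10 genes, in percent, 1 stacked bar per mouse, ordered by group. The Csf3r share, a median of 36.6% in unirradiated, vehicle-treated mice on Day 1, was 56.0% and 51.8% with 100 and 200 mg/kg on Day 1 and 83.9% and 81.4% in the irradiated groups.

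The make-up of the receptor pool changed with these levels. After TBI with vehicle, Csf3r took 62.9% to 85.5% of the summed level per kb (median 83.9%), and Il7r and Il2rg took medians of 0.519% and 0.647%, where unirradiated mice had 10.5% and 13.7%. At 100 mg/kg on Day 1 the shares of Il7r and Il2rg were 5.97% and 7.32%, and at 200 mg/kg 4.58% and 7.52%. The Il2rb share at 200 mg/kg spread from 3.10% to 16.7% around a median of 8.83%. At these doses the Csf3r share was larger than with vehicle although the level of Csf3r did not pass, and the shares were not tested.

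Ratios of counts within a mouse, on the log2 scale with 1 count added to each gene, were compared in 12 pairs of groups for 8 pairs of genes (2-sided exact permutation test, 6 against 6, smallest possible p = 0.00216, adjusted by Benjamini-Hochberg over 96 tests), and 37 passed. The ratio of Csf3r to Il7r, a neutrophil-lineage to a lymphoid receptor, had a mean of 1.34 ± 0.50 (SD, n = 6) in vehicle-treated mice on Day 1, 2.88 ± 0.34 (SD, n = 6) at 100 mg/kg and 3.06 ± 0.59 (SD, n = 6) at 200 mg/kg. After TBI it was 6.88 ± 0.26 (SD, n = 6) with vehicle, a difference of 5.54, and 6.22 ± 0.40 (SD, n = 6) with BIO 300. All 3 of these groups were apart from the vehicle group on Day 1 (exact permutation p = 0.00216, adjusted p = 0.00989 for 100 mg/kg, for 200 mg/kg and for TBI with vehicle). Between the irradiated groups the ratio was lower with BIO 300 by 0.66 with overlapping ranges (exact permutation p = 0.0108, adjusted p = 0.0346), the 1 ratio of 8 that passed there. That adjusted p rests on all 96 tests, those of TBI and dose included, and was not computed within these 8 ratios. The pairs of genes were chosen with earlier results of these data known.

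Some pairs of chains of a single receptor changed their ratio and others did not pass. Csf2ra to Csf2rb, the binding and signalling chains of the GM-CSF receptor, was lower by 0.87 at 100 mg/kg on Day 1, without overlap (exact permutation, adjusted p = 0.00989), and by 0.87 at 200 mg/kg (adjusted p = 0.0346 by the same exact test). TBI with vehicle gave -0.18, which did not pass. Csf2rb to Csf2rb2 was higher by 1.08 after TBI, without overlap (exact permutation, adjusted p = 0.00989). Reads from stretches that these near-copies share may be missing from the counts of both, and their part in this ratio was not tested. Il2rb to Il2rg, which pair in the receptors for interleukin-2 and interleukin-15, was higher by 1.04 and 1.38 at 100 and 200 mg/kg (exact permutation, adjusted p = 0.0223 for both) and by 1.95 after TBI (adjusted p = 0.00989). Il10ra to Il10rb, the chains of the interleukin-10 receptor, was lower by 1.76 to 2.64 in the same comparisons, without overlap in any of them (exact permutation, adjusted p = 0.00989). Il6ra to Il6st, the chains of the interleukin-6 receptor, was higher by 0.63 at 200 mg/kg (exact permutation, adjusted p = 0.039) and did not pass at 100 mg/kg (0.36) or after TBI with vehicle (2.17, exact permutation, adjusted p = 0.0677). In contrast, Il7r to Il2rg, the chains of the interleukin-7 receptor, passed in 0 of the 12 pairs of groups, although both genes fell several-fold. Its mean was 0.57 ± 0.15 (SD, n = 6) with vehicle on Day 1, 0.70 ± 0.19 (SD, n = 6) at 100 mg/kg, 0.35 ± 0.34 (SD, n = 6) at 200 mg/kg and 0.40 ± 0.90 (SD, n = 6) after TBI.

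**Figure D4:**
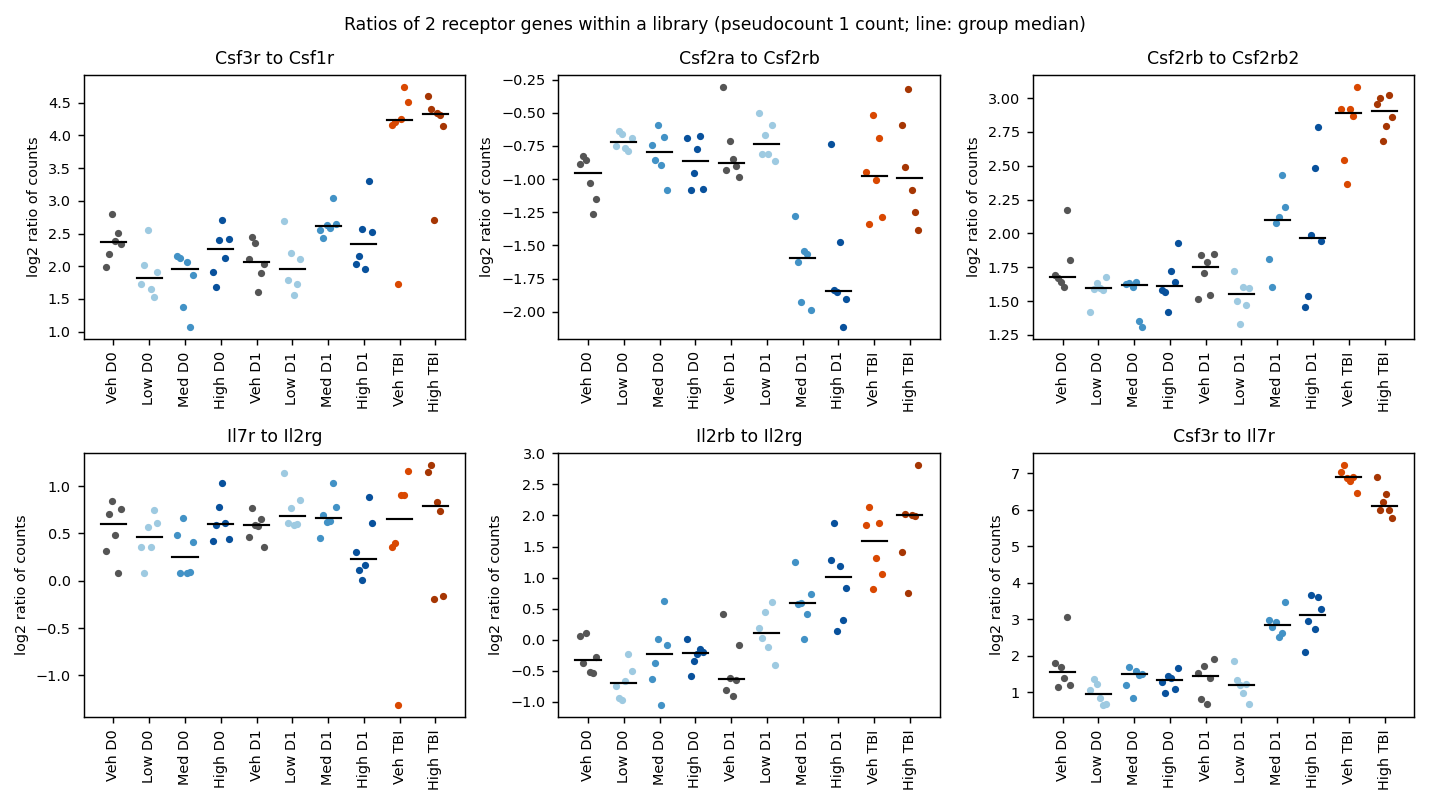
Log2 ratios of counts for 6 pairs of receptor genes in each mouse, by group, with 1 count added to each gene. Csf3r to Il7r separates the irradiated groups (5.77 to 7.24 on the log2 scale) from all unirradiated ones, and Csf2ra to Csf2rb has its lowest medians at 100 and 200 mg/kg on Day 1.

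Markers of blood cell types moved in the same comparisons. The summed level of 12 neutrophil markers was 293 to 433 CPM (median 388) with vehicle on Day 1, 783 to 3546 CPM (median 2453) after TBI, 447 to 749 CPM (median 678) at 100 mg/kg and 308 to 752 CPM (median 514) at 200 mg/kg. After TBI 8 of 11 tested neutrophil markers were DEGs higher and 1 lower. The summed 8 T cell markers had medians of 373 CPM with vehicle, 86.7 and 96.2 CPM at 100 and 200 mg/kg and 75.5 CPM after TBI, and the 8 B cell markers had 1001, 281, 307 and 99.0 CPM. In each of these 3 comparisons all 8 T cell and all 8 B cell markers were DEGs lower. Of the 8 NK cell markers, 6 were DEGs lower after TBI, 1 with 100 mg/kg and 0 with 200 mg/kg. Of the 12 monocyte markers, 5 were DEGs lower and 2 higher after TBI, 8 lower and 1 higher at 100 mg/kg, and 6 lower and 1 higher at 200 mg/kg. All 7 platelet markers were DEGs higher in these 3 comparisons, with summed medians of 2132 CPM with vehicle, 15790 and 19890 CPM at 100 and 200 mg/kg and 12600 CPM after TBI. The summed 8 erythroid markers had medians of 99660 CPM with vehicle, 400600 and 457300 CPM at 100 and 200 mg/kg and 122900 CPM after TBI. The part of cell numbers in the receptor levels was not tested.

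Set against such sums, the receptor genes behaved differently from one another. Il7r stood at a median of 22.5% to 29.0% of the T cell marker sum in all 10 groups, including those where both had fallen. Il2rg was at 14.9% to 19.7% of that sum across the groups. For Csf3r, the level was 56.5% to 62.3% of the neutrophil marker sum in the other 6 unirradiated groups, 27.8% and 31.8% at 100 and 200 mg/kg on Day 1, and 80.5% and 83.5% in the irradiated groups. At 100 mg/kg the highest mouse (39.9%) was below the lowest vehicle-treated mouse on Day 1 (50.5%). Csf1r was at 5.98% to 6.93% of the monocyte marker sum in those 6 groups, 2.31% and 2.57% at the higher doses on Day 1 and 8.90% after TBI with vehicle. Il2rb was at 26.7% to 38.1% of the NK cell marker sum in the same groups, 21.6% and 18.9% at the higher doses and 48.3% after TBI. The monocyte marker sum was itself higher at these doses, with medians of 841 CPM with vehicle on Day 1, 1137 CPM at 100 mg/kg and 1339 CPM at 200 mg/kg. This was so although more of its markers were DEGs lower than higher. F13a1 and Fn1 held the most counts in that sum (660263 and 310072 over the 60 mice). The lower Csf1r shares are therefore not a measure of Csf1r per monocyte. Several marker genes are themselves expressed in more than 1 cell type, and these shares were not tested.

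Within groups, receptor genes varied with other genes to different degrees. Correlations here are Pearson's r of deviations from the group means of log2(CPM + 1) over the 60 mice, given as descriptions, since all genes of a mouse share its library and scale. Among 6738 genes, those most like Csf3r were Cxcr2 (r = 0.972), Cd33 (0.967) and Siglece (0.962), the first a neutrophil chemokine receptor. Those most like Il7r were Tcf7 (0.949), Lef1 (0.943) and Cd3d (0.937), T cell transcription factors and a chain of the T cell receptor complex. Those most like Il2rb were Ctsw (0.932), Nkg7 (0.923) and Klrk1 (0.875), known from cytotoxic lymphocytes. For Csf1r they were Hip1 (0.874), Naip2 (0.863) and Cd68 (0.852), and for Il2rg Gimap8 (0.936), Rasgrp1 (0.932) and Adcy7 (0.929). Csf2rb was nearest to Nfam1 (0.944), Il6ra to Sh3bp1 (0.949), Csf2ra to Pirb (0.885), Csf2rb2 to Sirpa (0.854) and Il10ra to Gm4759 (0.891). Among the members themselves, the highest value was 0.892 for Csf3r with Csf2rb, followed by 0.84 for Il2rg with Il10ra and 0.816 for Csf2ra with Il6ra, and the lowest was 0.146 for Csf3r with Il2rg. With summed markers, r was 0.918 for Csf3r with neutrophil, 0.91 for Il7r with T cell, 0.838 for Il2rb with NK cell and 0.342 for Csf1r with monocyte markers. Sums of other cell types also varied with some receptor genes, with r = 0.779 for Il6ra and 0.517 for Csf3r with T cell markers, and 0.653 for Csf3r and 0.70 for Il7r with eosinophil markers, so these values do not single out 1 cell type.

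Other genes of the pathway were read from fixed lists of partner chains, ligands, kinases and STAT factors, feedback regulators and response genes. Of the 15 ligand genes, 10 were under 1 CPM in every group, against 1 of 20 partner chains. After TBI with vehicle, 8 of 20 partner chains passed higher and 4 lower, 4 and 1 of 12 tested ligands, 5 and 3 of 11 JAK and STAT genes, 7 and 4 of 15 feedback regulators and 6 and 3 of 14 response genes (24.4% and 22.4% of all genes). At 100 mg/kg on Day 1 the counts were 4 and 8 of 20 partner chains, 5 and 1 of 10 ligands, 3 and 8 of 11 JAK and STAT genes, 5 and 6 of 15 feedback regulators and 4 and 7 of 14 response genes (25.0% and 40.6% of all genes). At 200 mg/kg they were 5 and 7 of the partner chains, 4 and 0 of the ligands, 3 and 7 of the JAK and STAT genes, 6 and 6 of the feedback regulators and 3 and 8 of the response genes (23.6% and 39.9% of all genes). Between the irradiated groups no gene of these lists passed.

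Among the genes named from these lists, several changed by more than 2 on the log2 scale. Epor, the erythropoietin receptor, rose from a median of 2.27 CPM with vehicle on Day 1 to 13.3 CPM at 100 mg/kg, 14.4 CPM at 200 mg/kg and 14.7 CPM after TBI, by 2.81, 2.88 and 2.82. Il6st, the signalling partner of Il6ra, fell by 2.07 at 200 mg/kg (5.09 to 23.8 against 38.2 to 64.1 CPM, adjusted p = 1.77e-05). Il15, a ligand of Il2rb and Il2rg, rose by 1.98 at 100 mg/kg, from a median of 4.07 to 17.4 CPM. It was also higher by 2.53 in irradiated, vehicle-treated mice against vehicle on Day 0 (medians 25.3 and 4.53 CPM). In irradiated mice given 200 mg/kg it was higher by 2.71 than with vehicle on Day 1 (median 29.4 CPM). Of genes downstream of STAT3, Cebpd, a transcription factor gene induced by interleukin-6 and G-CSF, rose by 2.71 after TBI, from 13.3 to 22.4 CPM (median 17.5) to 34.1 to 197 CPM (median 121). In irradiated against unirradiated mice given 200 mg/kg, Csf1, the ligand of Csf1r, rose by 2.64 (58.7 to 160 against 7.26 to 21.6 CPM) and Socs3, a feedback inhibitor of G-CSF and interleukin-6 receptors, by 2.57 (37.4 to 174 against 10.6 to 20.1 CPM), both without overlap. At 50 mg/kg on Day 0, Bcl2l1, which encodes a survival protein abundant in red cell precursors, fell by 1.79, where 4 of 8 erythroid markers passed lower.

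Promoter sequence was read for the 6 receptor genes that had a record in RefSeq (GRCm38.p6), Csf3r, Csf2ra, Csf2rb2, Il6ra, Il7r and Il2rg. In the 300 bases from 250 before to 50 after the start, GAGGAA, letters found in sites of the myeloid factor PU.1, occurred on either strand in Csf3r, Csf2ra, Csf2rb2 and Il6ra and in 28.3% of 32851 promoters. TTCNNNGAA, the core of STAT sites, occurred in Il7r and Csf2rb2 and in 8.30% of promoters. The 250 bases before the start are shown for Il6ra and Il2rg, which fell together at 100 and 200 mg/kg and moved in opposite directions after TBI, with the motif in capitals, here as TTCCTC on the strand printed.
Il6ra, chr3:89913197-89913446, minus strand: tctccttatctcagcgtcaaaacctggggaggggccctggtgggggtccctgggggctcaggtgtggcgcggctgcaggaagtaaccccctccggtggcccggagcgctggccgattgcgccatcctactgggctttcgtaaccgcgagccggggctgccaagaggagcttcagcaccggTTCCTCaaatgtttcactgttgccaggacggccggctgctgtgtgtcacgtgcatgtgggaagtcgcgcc
Il2rg, chrX:101268256-101268505, minus strand: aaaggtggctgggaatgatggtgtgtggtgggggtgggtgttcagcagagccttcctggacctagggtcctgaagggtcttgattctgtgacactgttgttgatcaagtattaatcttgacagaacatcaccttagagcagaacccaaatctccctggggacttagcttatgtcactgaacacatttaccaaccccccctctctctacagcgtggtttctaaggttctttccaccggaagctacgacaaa
Neither motif was found in the window of Il2rg. These matches are descriptions of letters, and no binding was measured.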

How the data were processed

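RNA was sequenced from PAXgene whole blood of 60 mice. Library preparation is given as poly(A) selection in the labels but as ribosomal and globin depletion of stranded total RNA in the published methods. Trimming (Trimmomatic 0.36), alignment to GRCm38 (STAR 2.5.2b) and counting of reads that hit 1 gene (Subread 1.5.2) were done by the authors, who deposited counts that are not normalized. The annotation release and strand setting are not given in the sources used here. The deposited result tables also hold a normalized signal per mouse (counts over size factors) and the authors' DESeq2 log2 fold changes with raw and adjusted p-values, none of which were used for results.

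The receptor genes, gene lists, ratios and tests were chosen with earlier results of these data known. GENCODE M21 gave names for 48970 of the 49315 identifiers. Each pair of groups, and each interaction (4 groups), was fitted with edgeR 4.0.16 (glmQLFit, glmQLFTest, TMM; R 4.3.3, limma 3.58.1, data.table version 1.17.8), keeping genes whose counts summed to 10 or more over those mice, and adjusted over all genes tested. DESeq2 1.42.0 was the second tool. Pathway genes were named by rule, as the 3 largest changes per comparison among DEGs without overlap and with a mean of 10 CPM or more in either group. One gene that this rule names is not reported here. Ratios, correlations and sequence searches used Python 3.11.15 (pandas 2.3.3, numpy 2.4.6, scipy 1.17.1). On counts simulated from the mice of TBI against vehicle on Day 1 (25146 genes), edgeR recovered 51% of genes changed by 1.5 and 90% of those changed by 3 on the log2 scale. No 2 libraries were copies, the smallest chi-square per gene being 12.0.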

Additional observations from a re-analysis of the deposited data

Results flagged for a closer look

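Of 100 sets of 6 mice (10 receptor genes in 10 groups), 5 held 1 mouse far from the others by Dixon's test, and chance flags about 1 in 20. Csf3r was 336 CPM in mouse 31 (50 mg/kg, Day 1), where the others had 163 to 227 CPM. Mouse 11 (100 mg/kg, Day 0) was high in both beta chains, with 47.2 CPM of Csf2rb (others 28.5 to 35.4) and 18.4 CPM of Csf2rb2 (others 9.34 to 11.6). Csf2rb2 was 13.4 CPM in mouse 21 (200 mg/kg, Day 0; others 8.93 to 10.4). Il2rb was 168 CPM in mouse 60 (irradiated, 200 mg/kg; others 17.0 to 65.4).

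Interactions, in which an effect differed between groups by edgeR's test, were found for 5 receptor genes between TBI with 200 mg/kg and TBI with vehicle: Csf2ra (1.15), Il6ra (1.57), Il7r (2.37), Il2rg (2.06) and Il10ra (1.503). Between Day 1 and Day 0, the effect of 50 mg/kg differed for Il2rg (-0.59). That of 100 mg/kg differed for Csf2ra (-1.41), Csf2rb2 (-0.85), Csf1r (-1.03), Il6ra (-1.58), Il7r (-1.62), Il2rb (-1.16), Il2rg (-2.01) and Il10ra (-1.44), and that of 200 mg/kg for Csf2ra (-0.97), Il6ra (-1.34), Il7r (-1.97), Il2rg (-1.62) and Il10ra (-1.10). These values are differences of log2 fold changes.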

How the results depend on the processing

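The receptor genes were refitted in 16 comparisons with DESeq2, total counts, a stricter filter, no filter, all 60 mice in one fit, odd or even animal number as a term and without the libraries that held liver transcripts (1120 values). No receptor gene that passed in edgeR's main fit (TMM, the compared groups alone) changed sign. Over all settings, 54 of the 1120 values had the opposite sign to that of the main fit. Scaling by total counts changed most, with 27 values newly past the threshold and 5 no longer past it. Another 8 were reversed, that is, past the threshold with the opposite sign. The reversed values, all for genes that did not pass in that main fit, were Csf2rb 0.42 and Csf2rb2 0.61 at 50 mg/kg on Day 0, Csf3r -0.75, Csf2ra -0.97, Csf2rb -0.78 and Csf2rb2 -0.80 for 50 mg/kg between days, and Csf3r -1.35 and -1.28 for 100 and 200 mg/kg between days. Csf2rb at 50 mg/kg on Day 0 passed edgeR's test in opposite directions under different settings. With TMM it was lower with odd or even animal number as a term (-0.28, adjusted p = 0.0183) and without mouse 5 (-0.36, adjusted p = 0.0428). With total counts it was higher (0.42, adjusted p = 0.0366). With total counts the receptor genes called were 2 at 50 mg/kg on Day 0, 10 on Day 1 with 100 mg/kg and 10 with 200 mg/kg, 10 for the interaction with TBI, and 5, 10 and 9 for 50, 100 and 200 mg/kg between days. That scaling moved the median of all genes by -0.97, -1.46 and -1.23 in the latter 3, by 0.90 for irradiated against unirradiated mice given 200 mg/kg, by -0.55 for those mice against vehicle on Day 1, by -0.13 between the irradiated groups and by -0.14 for TBI against vehicle on Day 0. The cause was not tested.

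With each mouse left out in turn (72 fits of 6 comparisons), the receptor genes called numbered 0 to 0 at 50 mg/kg on either day, 5 to 7 on Day 1 with 100 mg/kg, 3 to 5 with 200 mg/kg, 6 to 7 for TBI with vehicle against Day 1 and 0 to 0 between the irradiated groups. Csf2rb at 100 mg/kg on Day 1 no longer passed in 8 of these fits and with the stricter filter (adjusted p = 0.0763). Csf2rb2 between days at 100 mg/kg no longer passed without the libraries that held liver transcripts (adjusted p = 0.0844), and Il2rb no longer passed with all 60 mice in one fit (adjusted p = 0.0524). Ratios that passed numbered 37 with 0.5 counts added as with 1. No paired analysis was possible because no animal number is shared between groups. Levels rest on 26 or more counts per receptor gene and mouse.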
